A study of Mus musculus with 5 samples.

Results

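Proliferation genes were followed across cells sorted for tdTomato from the mouse retina. They were 35 genes, 20 of the G2 and M phases and 15 of S phase, chosen by their symbols from the 33696 genes listed in the count tables. All 35 were found, and each had at least 1 unique molecular identifier (UMI) in all 4 libraries analysed, except for 1 gene in the first control library. The G2/M members were *Mki67*, *Top2a*, *Cdk1*, *Ccnb1*, *Ccnb2*, *Ccna2*, *Birc5*, *Ube2c*, *Cenpf*, *Cenpe*, *Aurka*, *Aurkb*, *Bub1*, *Bub1b*, *Plk1*, *Kif11*, *Tpx2*, *Nusap1*, *Prc1* and *Hmmr*. The S members were *Pcna*, *Mcm2*, *Mcm3*, *Mcm4*, *Mcm5*, *Mcm6*, *Mcm7*, *Tyms*, *Rrm1*, *Rrm2*, *Tk1*, *Gins2*, *Cdc6*, *Cdt1* and *Uhrf1*. Of 10749 cells with at least 1000 UMIs and a mitochondrial share of at most 15%, 496 held at least 3 UMIs of the G2/M members.

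All groups came from *Glast-CreERT2*; *Rosa26-Ai65* mice on the C57BL/6J background, aged 12 to 20 weeks and pooled over both sexes. *Glast-CreERT2* is a tamoxifen-inducible recombinase driven by a glial promoter, and the Ai65 reporter turns on tdTomato where both Cre and Flp act. The AAV, of the ShH10 capsid with a *Gfap* promoter, carried FlpO together with *mKate2* (a red fluorescent protein, control) or *Yap5SA* (a form of the coactivator YAP that resists inhibition). Cells were sorted 56 days after injection from retinas pooled within a condition, 16 for *mKate2* AAV and 21 for *Yap5SA* AAV. The libraries analysed were replicates 1 and 2 of *mKate2* AAV followed by replicates 1 and 3 of *Yap5SA* AAV, with 1676, 5637, 1126 and 2310 cells, and values of 4 libraries below are always given in this order. Nothing in the labels says which libraries came from separate animals, so errors and p-values measure only the spread between these libraries. *Yap5SA* AAV replicate 2 shared 1361 cell barcodes (99.8%) with replicate 1 and was left out, whereas other pairs shared 0 to 7. The median depth was 5521, 4018, 9747 and 3287 UMIs per cell.

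The labels call the cells purified MG, yet clusters that carried MG markers held 5208 of the 10749 cells. Cells like microglia or macrophages numbered 1208, rod-like cells 1264, bipolar-like cells 331, amacrine-like cells 221, pigment epithelium-like cells 85, cone-like cells 83 and T or NK-like cells 66. Unnamed clusters held the rest, among them one of 322 cells led by *Igfbp2*, *Apod*, *Igfbp7*, *Rgs5*, *Tagln* and *Ccnd1*, which is singled out below because of its member counts and was chosen after these were seen. A tdTomato UMI could be looked for in the first library of each AAV, where 48.9% and 67.0% of MG-like cells and 5.88% and 4.40% of microglia-like cells held one. The cell cycle genes were left out of the genes used for clustering, so cell types were made without the members.

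Progress through the cell cycle is accompanied by waves of transcription. S phase genes load and fire replication origins (the MCM helicase, *Cdc6*, *Cdt1*, *Gins2*), hold the polymerase on DNA (*Pcna*) and supply deoxynucleotides (*Tyms*, *Rrm1*, *Rrm2*, *Tk1*), and are mostly driven by E2F factors. G2/M genes encode the cyclins and kinases of mitosis, the motors and bundling proteins of the spindle, and the kinetochore and its checkpoint, and many are repressed in resting cells through the CHR promoter element and activated through CCAAT boxes bound by NF-Y. Adult mammalian MG and retinal neurons are normally out of the cycle, while microglia can renew by division.

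The promoters of 4 G2/M members are shown because their levels separate in the results: *Top2a* and *Ube2c* were high in microglia-like cells, *Kif11* in some MG-like cells and *Bub1b* in rod-like cells. Sequences are from RefSeq on GRCm38.p6, an older build than that of the counts, read on the strand of the gene and ending before its outermost annotated start. They lie at chr11:99024237-99024439 (minus strand) for *Top2a*, chr2:164769679-164769847 (plus strand) for *Ube2c*, chr19:37376132-37376350 (plus strand) for *Kif11* and chr2:118597961-118598202 (plus strand) for *Bub1b*. Capitals mark CCAAT boxes (CCAAT, or ATTGG on the other strand) and CHR elements (TTTGAA or TTCGAA on either strand), with overlapping matches run together.
Top2a: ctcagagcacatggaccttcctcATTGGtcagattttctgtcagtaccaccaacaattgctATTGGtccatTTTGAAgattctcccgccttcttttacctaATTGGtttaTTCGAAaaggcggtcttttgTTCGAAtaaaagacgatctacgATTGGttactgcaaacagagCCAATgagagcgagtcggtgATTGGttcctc
Ube2c: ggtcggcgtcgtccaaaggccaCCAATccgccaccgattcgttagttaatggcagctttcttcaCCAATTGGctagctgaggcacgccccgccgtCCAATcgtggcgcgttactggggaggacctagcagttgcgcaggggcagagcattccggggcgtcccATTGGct
Kif11: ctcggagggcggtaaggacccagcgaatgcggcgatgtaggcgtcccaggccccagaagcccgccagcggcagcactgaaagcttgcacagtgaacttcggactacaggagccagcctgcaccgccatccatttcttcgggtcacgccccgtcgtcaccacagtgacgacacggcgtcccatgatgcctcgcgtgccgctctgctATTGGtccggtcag
Bub1b: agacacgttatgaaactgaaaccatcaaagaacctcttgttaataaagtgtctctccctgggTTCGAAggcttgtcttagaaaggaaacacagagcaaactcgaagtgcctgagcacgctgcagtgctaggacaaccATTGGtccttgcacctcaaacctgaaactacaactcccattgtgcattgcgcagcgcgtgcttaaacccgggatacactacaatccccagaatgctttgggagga

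Over the 250 bases before the RefSeq start, *Top2a* held 6 CCAAT boxes and 4 CHR elements, *Ube2c* 6 and 1, and *Kif11* and *Bub1b* 1 of each. The stretches printed above leave out 47, 81, 31 and 8 of these bases for *Top2a*, *Ube2c*, *Kif11* and *Bub1b*. They therefore show only 3 CHR elements for *Top2a*, 5 CCAAT boxes and 0 CHR elements for *Ube2c*, and 0 CHR elements for *Kif11*. Promoters were matched for 17 of the 20 G2/M members and 13 of the 15 S members. A CCAAT box was found in 15 of 17 G2/M members, 9 of 13 S members and 37.5% of the 27025 genes with a promoter. CHR elements were found in 8 of 17 G2/M members, 2 of 13 S members and 19.6% of all genes. E2F elements (TTTCCCGC, TTTCGCGC, TTTGCCGC or TTTGGCGC, either strand) were found in 1 of 17 G2/M members, 5 of 13 S members and 2.16% of all genes. Such a match describes letters and is neither a site nor a cause, and *Birc5* and *Nusap1* had no match of any of the 3 kinds in this window.

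The share of cells with at least 3 G2/M UMIs differed among cell types. In MG-like cells it was 1.36% (17 of 1248 cells, 95% interval 0.795 to 2.17), 3.42% (73 of 2137, 2.69 to 4.28), 2.41% (18 of 748, 1.43 to 3.78) and 1.40% (15 of 1075, 0.783 to 2.29) in the 4 libraries. In microglia-like cells it was 11.8% (4 of 34, 3.30 to 27.5), 6.32% (60 of 949, 4.86 to 8.06), 27.0% (43 of 159, 20.3 to 34.7) and 6.06% (4 of 66, 1.68 to 14.8). The microglia-like share lay above the MG-like share in every library, and the ranges over libraries did not overlap. Intervals are exact Clopper-Pearson intervals and cover counting error only. No p was calculated for a score over the members, because they had been chosen with results of these data known.

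In MG-like cells the control libraries had a mean share of 2.39% ± 1.45 and those of *Yap5SA* AAV one of 1.90% ± 0.715 (SD, n = 2 libraries each). For microglia-like cells the means were 9.04% ± 3.85 and 16.6% ± 14.8 (SD, n = 2 each). In both cell types the difference between AAVs was smaller than the spread between libraries of the group with the wider spread. The count of exactly 2 G2/M UMIs, just below the threshold, was reached by 140 MG-like, 44 microglia-like and 95 rod-like cells, and exactly 3 by 42, 25 and 50.

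The threshold of 3 UMIs also admitted neurons, which are postmitotic. Rod-like cells passed it in 13.1% (89 of 677, median 7807 UMIs) and 4.16% (24 of 577, median 3712) of cells in *mKate2* AAV replicate 2 and *Yap5SA* AAV replicate 3, the libraries with at least 20 such cells. In the same libraries the share was 14.6% and 12.2% for cone-like cells (medians 19089 and 17357 UMIs), 7.78% and 7.02% for bipolar-like cells (21750.5 and 18408) and 12.0% and 5.56% for amacrine-like cells (20931 and 12689). The MG-like shares, at medians of 3508 and 3257 UMIs there, lay below all of these, so they do not set MG-like cells above postmitotic neurons. The microglia-like share lay below all of the neuronal shares in *mKate2* AAV replicate 2 (6.32%) and among them in *Yap5SA* AAV replicate 3 (6.06%), so this threshold alone does not set microglia-like cells apart from neurons.

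Depth was then evened by drawing 2000 UMIs from every cell that held as many. The share with at least 3 G2/M UMIs was then 0%, 0.471%, 0.279% and 0.119% of MG-like cells, where the same cells had unthinned shares of 1.47% to 4.12%. In microglia-like cells it was 6.90%, 4.36%, 7.19% and 3.70% (unthinned 5.56% to 30.9%). Rod-like cells had 0.644% and 0.816%, and T or NK-like, cone-like, bipolar-like, amacrine-like and pigment epithelium-like cells had 0 in every library. Thinning kept 1154 of 1248, 1699 of 2137, 717 of 748 and 837 of 1075 MG-like cells. Of microglia-like cells it kept 29 of 34, 780 of 949, 139 of 159 and 54 of 66. After thinning, the microglia-like shares of the AAVs were close, at means of 5.63% ± 1.79 and 5.45% ± 2.47 (SD, n = 2 each).

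**Figure D1:**
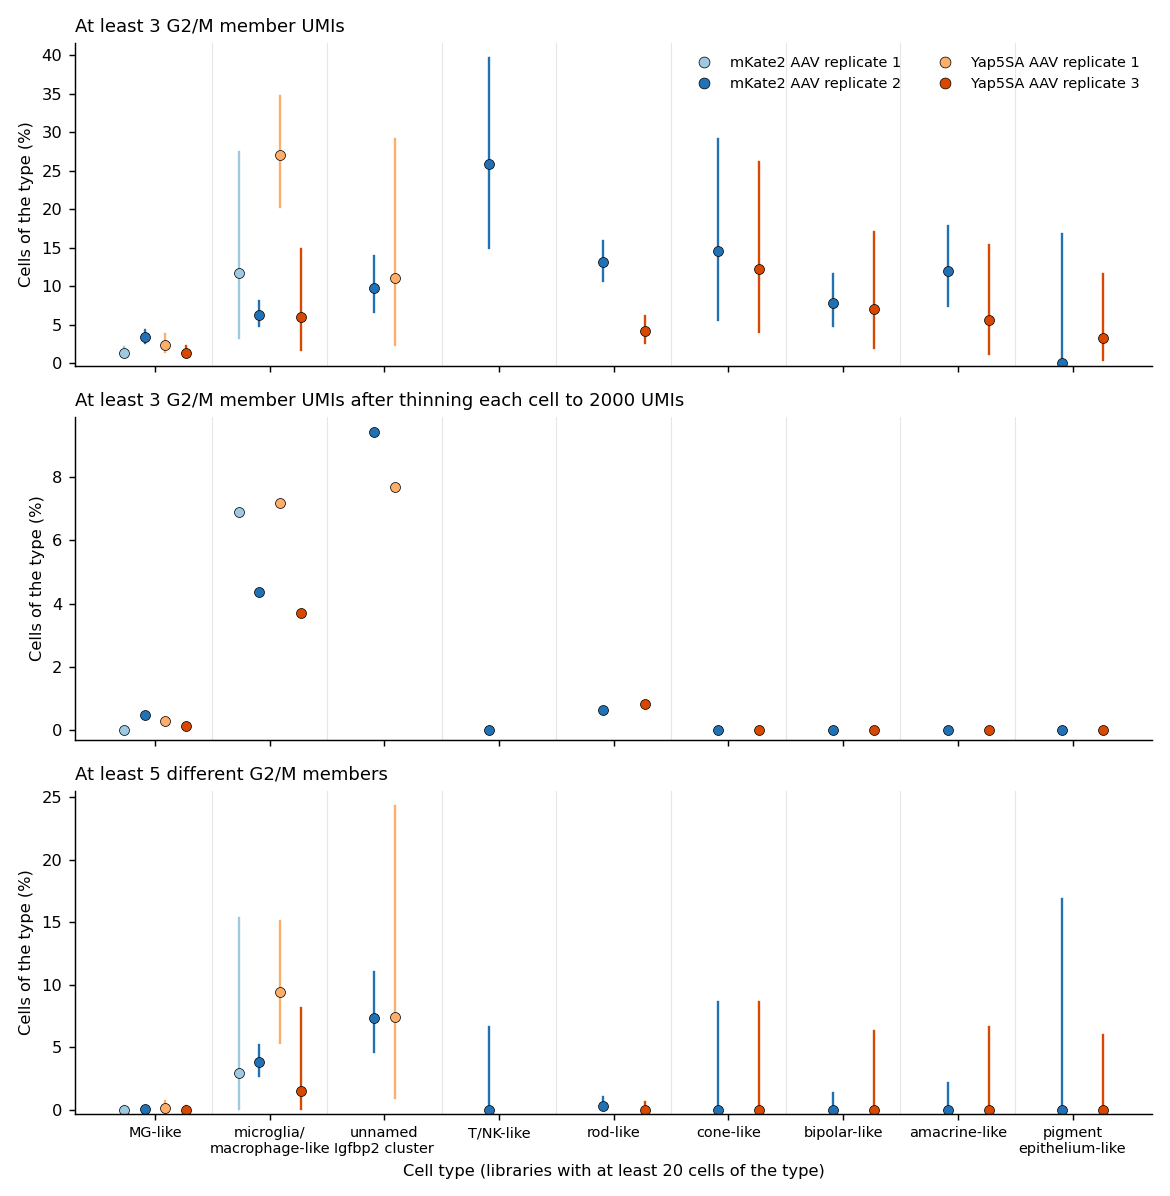
Share of cells of each type (y axis, %) that passed each threshold, 1 point per library with at least 20 cells of the type, and bars for exact 95% intervals in the upper and lower panels. In the middle panel, after thinning, microglia-like points lie between 3.70% and 7.19% and MG-like points at or below 0.471%.

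Cells that held many different members were fewer and were confined to few cell types. At least 5 different G2/M members, a limit set after the values were seen, were found in 80 of the 10749 cells. Of these, 53 were microglia-like, 23 belonged to the unnamed *Igfbp2* cluster, 2 were MG-like and 2 rod-like. By library there were 1, 60, 18 and 1. No such cell was found among 331 bipolar-like, 221 amacrine-like, 85 pigment epithelium-like, 83 cone-like or 66 T or NK-like cells or in the other unnamed clusters. In MG-like cells 0 of 1248 and 0 of 1075 cells in *mKate2* AAV replicate 1 and *Yap5SA* AAV replicate 3 allow shares of up to 0.240% and 0.279%.

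The broad cells, as those with at least 5 different G2/M members are called here, were somewhat deeper than the others among microglia-like cells. In the *Igfbp2* cluster their median was 7859 against 4075.5 UMIs in *mKate2* AAV replicate 2 but 6465 against 8641 UMIs in *Yap5SA* AAV replicate 1. In the 4 libraries the median of microglia-like broad cells was 14911, 4930.5, 18567 and 10447 UMIs, against 11693, 3960, 12025 and 5346 UMIs in the others. Over all libraries their median was 7464 UMIs (1293 to 41387) among microglia-like cells and 7859 (1905 to 201236) in the *Igfbp2* cluster, with medians of 26 and 28 G2/M UMIs. Both had a median of 10 different G2/M members, and the widest cells held 19 and 20 of the 20. In contrast, the 121 MG-like cells that held at least 3 G2/M UMIs of fewer than 5 members had a median of 23387 UMIs and a median of 2 different members. The corresponding 111 rod-like cells had a median of 11809 UMIs and likewise 2 members.

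**Figure D2:**
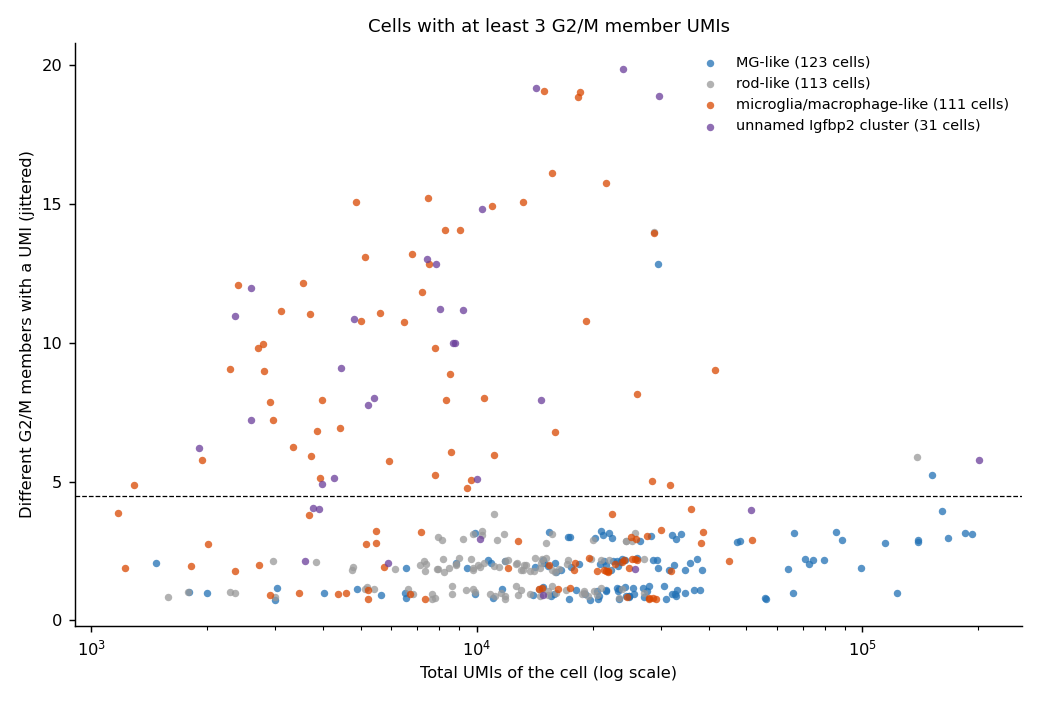
Number of different G2/M members (y axis, jittered) against total UMIs (x axis, log scale) of each MG-like, rod-like, microglia-like or *Igfbp2*-cluster cell with at least 3 G2/M UMIs, with a dashed line below 5 members. Nearly all MG-like and rod-like cells lie below the line at high depth, whereas 53 microglia-like and 23 *Igfbp2*-cluster cells lie above it.

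The 2 MG-like and 2 rod-like broad cells were each unusual. One MG-like cell (*mKate2* AAV replicate 2) had 151567 UMIs and 5 different G2/M members, and held 760 UMIs of rod markers beside 2377 of MG markers. The other (*Yap5SA* AAV replicate 1) had 29552 UMIs, 97 G2/M UMIs of 13 different members, 131 UMIs of MG markers, 2 of microglia markers and none of rod markers or tdTomato. It held 4 UMIs of S members, and its other genes of G2 and M phase summed to 6396 CPM (counts per 1000000 UMIs of the cells summed), against 1020 CPM in the remaining MG-like cells of that library. The rod-like cells had 138333 and 28771 UMIs and held 945 and 312 UMIs of MG markers and 156 and 296 of microglia markers. No doublet caller was applied, and the part of doublets in these 4 cells was not tested.

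Microglia-like broad cells carried the markers of their type. Microglia markers made up 1.92%, 2.63%, 2.23% and 4.95% of their UMIs in the 4 libraries, against 2.09%, 3.58%, 2.16% and 3.65% in the other microglia-like cells. MG markers made up 0 to 0.0598% and rod markers 0 to 0.0122% of their UMIs. A tdTomato UMI was found in 0 of 1 and 0 of 15 of them in the first library of each AAV, and in 2 of 33 and 7 of 144 of the other microglia-like cells. The sort was for tdTomato fluorescence, and how these cells entered it was not tested.

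The 53 broad cells carried most of the G2/M UMIs of microglia-like cells. Summed over the 20 G2/M members, the level was 388, 211, 502 and 116 CPM in microglia-like cells and 19.9, 61.6, 35.3 and 27.8 CPM in MG-like cells. Within the libraries the microglia-like level was therefore 19.5, 3.43, 14.2 and 4.15-fold that of MG-like cells. Without the broad cells of either type, whose removal by itself lowers the level, the folds were 2.46, 0.836, 3.56 and 1.98. The value of *mKate2* AAV replicate 1 rests on a single cell of 14911 UMIs, which held 179 G2/M UMIs of 19 different members, 52 of them *Top2a* and 39 *Mki67*. The S members of microglia-like cells summed to 1.80, 1.62, 2.32 and 1.45-fold the MG-like level.

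Single members were then compared between microglia-like and MG-like cells with counts summed per library and library as a block. Of 14375 genes tested, 7059 (49.1%) were called by the quasi-likelihood test of edgeR after Benjamini-Hochberg adjustment, with 3061 higher (21.3%) and 3998 lower (27.8%) in microglia-like cells. Of the 35 members 27 passed the filter on low counts, and 20 of them were higher and 0 lower in microglia-like cells, beside that background of 21.3%. The 8 that did not pass were *Ccnb1*, *Aurka*, *Aurkb*, *Bub1*, *Hmmr*, *Rrm2*, *Tk1* and *Cdc6*. Some members can have passed only because they were high in microglia-like cells. With no filter all 35 were tested and 26 were higher, beside 3435 of all 25102 genes. In the GRCm39 annotation 9 members overlap a protein-coding gene on the opposite strand and 0 on the same strand, *Ube2c*, *Cdk1*, *Ccna2* and *Nusap1* being among the former. The median log2 fold change was 3.29 for the 15 G2/M members tested and 1.35 for the 12 S members, against −0.23 for all genes tested.

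Members that act on chromosomes and spindle are given first, although *Kif11* was not called and *Aurkb*, *Bub1* and *Hmmr* were not tested. *Birc5* (chr11:117740040-117746581 of GRCm39, plus strand), survivin of the chromosomal passenger complex, had 19.0, 28.2, 25.7 and 13.0 CPM in microglia-like cells and 0.351, 0.730, 1.33 and 0.280 CPM in MG-like cells. All 4 microglia-like values lay above all MG-like values, and the log2 fold change was 5.5 ± 0.45 (SE, adjusted p = 1.66e-05, edgeR). *Top2a* (chr11:98883769-98915062, minus strand), the topoisomerase that untangles sister chromatids, had 101, 27.6, 88.3 and 5.59 CPM against 0.351, 2.25, 2.15 and 0.140 CPM. Its values did not overlap either, although *Yap5SA* AAV replicate 3 lay far below the others with 3 UMIs, and the log2 fold change was 5.78 ± 0.67 (SE, adjusted p = 0.000123, edgeR). *Cenpf*, a kinetochore protein of G2 and mitosis, had 11.4, 9.15, 36.3 and 1.86 CPM against 0.0876, 0.122, 1.85 and 0 CPM, and *Yap5SA* AAV replicate 3 rested on 1 UMI. Its log2 fold change was 5.74 ± 0.64 (SE, adjusted p = 0.000103, edgeR). *Nusap1*, which bundles spindle microtubules, had 11.4, 14.4, 31.3 and 24.2 CPM against 5.08, 3.04, 5.33 and 2.94 CPM, and its log2 fold change of 2.74 ± 0.41 (SE) was smaller (adjusted p = 0.000514, edgeR).

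Members that regulate mitosis included *Ube2c*, *Cdk1*, *Ccnb2* and others that were not tested, such as *Ccnb1* and *Aurkb*. *Ube2c* (chr2:164611768-164620742, plus strand), the ubiquitin-conjugating enzyme of the anaphase-promoting complex, had 1.90, 24.6, 20.7 and 9.32 CPM, and 1, 1, 2 and 1 UMIs in MG-like cells. Its log2 fold change of 7.16 ± 0.69 (SE, adjusted p = 4.43e-05, edgeR) depends on these few UMIs, and *mKate2* AAV replicate 1 held 1 UMI in microglia-like cells too. *Cdk1*, the mitotic kinase, had 9.51, 15.8, 7.36 and 1.86 CPM against 0.789, 0.791, 0.615 and 0.420 CPM (log2 fold change 4.10 ± 0.58, SE, adjusted p = 0.000379, edgeR). *Ccnb2*, one of its cyclins, had 5.71, 11.1, 27.1 and 31.7 CPM against 1.05, 0.608, 2.56 and 0.280 CPM (4.49 ± 0.64, SE, adjusted p = 0.000421, edgeR). For both genes the lowest microglia-like library lay above the highest MG-like library, but for *Cdk1* that library, *Yap5SA* AAV replicate 3, held 1 UMI. *Mki67*, which encodes the proliferation marker KI67, had 76.1, 10.6, 78.6 and 9.32 CPM against 0, 0.791, 1.03 and 0.280 CPM, a log2 fold change of 6.35 ± 0.85 (SE, adjusted p = 0.000274, edgeR). *Cenpe*, *Plk1*, *Ccna2*, *Prc1*, *Bub1b* and *Tpx2* were also called higher, with log2 fold changes from 2.16 to 3.29.

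Of the S members, 6 of 12 tested were higher. *Mcm3*, a subunit of the replicative helicase, had 3.80, 26.2, 17.5 and 14.9 CPM in microglia-like and 2.02, 3.71, 2.26 and 3.08 CPM in MG-like cells (log2 fold change 2.91 ± 0.45, SE, adjusted p = 0.000657, edgeR). *Cdt1*, which licenses origins, had 13.3, 11.1, 17.5 and 13.0 CPM against 0.0876, 2.86, 0.718 and 0.280 CPM (4.62 ± 0.76, SE, adjusted p = 0.000937, edgeR). All microglia-like values of *Cdt1* lay above all MG-like values. *Pcna*, the sliding clamp, had 119.9, 97.1, 149 and 142 CPM against 46.6, 78.9, 55.0 and 62.1 CPM, so the groups did not overlap (1.52 ± 0.27, SE, adjusted p = 0.00134, edgeR). *Mcm5*, *Mcm6* and *Uhrf1* were called as well.

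The 7 members tested and not called were *Kif11*, *Mcm2*, *Mcm4*, *Mcm7*, *Tyms*, *Rrm1* and *Gins2*. *Rrm1*, the large subunit of ribonucleotide reductase, had 28.5, 16.9, 20.7 and 9.32 CPM in microglia-like and 30.1, 20.4, 24.9 and 21.4 CPM in MG-like cells (log2 fold change 0.07 ± 0.30, SE). *Mcm4* had 24.7, 20.2, 16.1 and 20.5 CPM against 19.0, 29.2, 15.2 and 29.4 CPM (0.29 ± 0.29, SE). The ranges of both genes overlapped, and the unscaled *Rrm1* level was lower in microglia-like cells of every library, while the fitted fold change, computed on scaled library sizes, was near 0. *Mcm7* (3.80, 19.5, 14.7 and 1.86 CPM against 12.6, 8.94, 10.97 and 10.2 CPM) and *Tyms*, thymidylate synthase (5.71, 10.4, 13.3 and 5.59 CPM against 8.94, 6.88, 10.6 and 8.12 CPM), spread over libraries more widely in microglia-like than in MG-like cells.

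**Figure D3:**
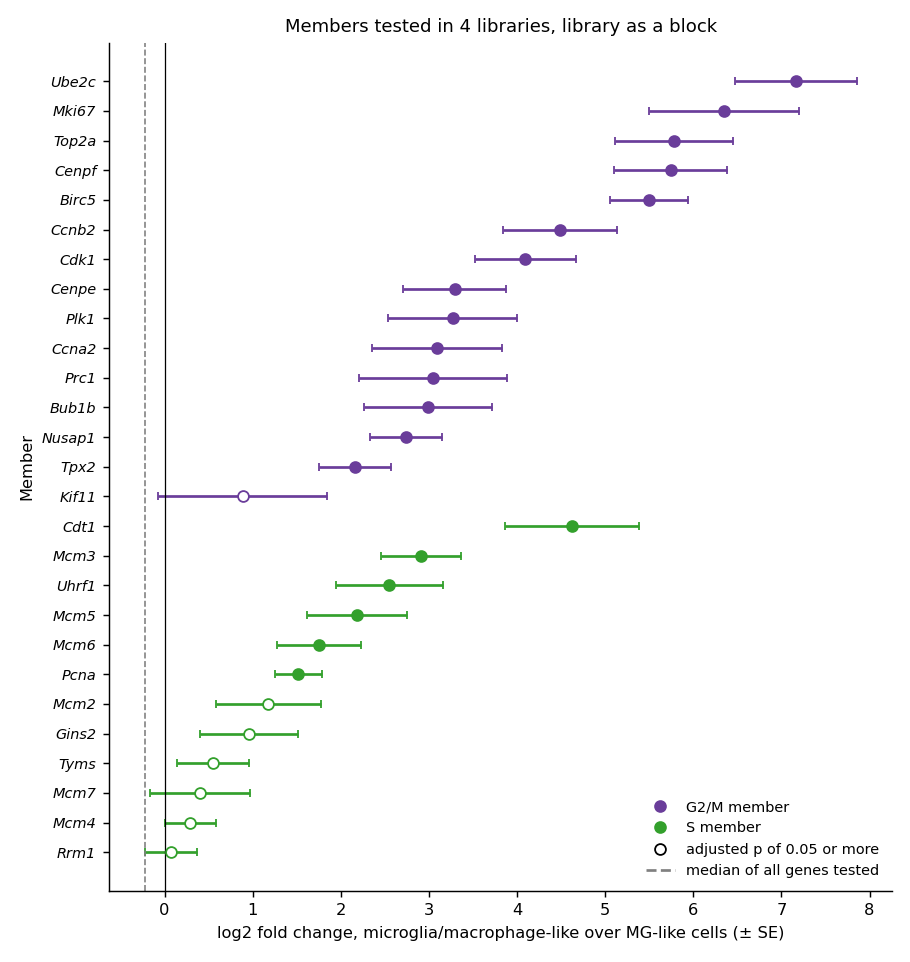
Log2 fold change (x axis, with SE) of microglia-like over MG-like cells for the 27 members tested (y axis), G2/M members in purple and S members in green. Filled points have an adjusted p under 0.05, and all 27 lie right of the dashed median of all genes at −0.23.

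The calls were repeated without the broad cells and without single libraries. The broad cells were chosen by their G2/M members, so lower G2/M values without them follow from that choice and are given only as a description. Without them 23 members were tested and 10 were higher, namely *Birc5*, *Bub1b*, *Cenpf*, *Mki67*, *Top2a*, *Cdt1*, *Mcm3*, *Mcm5*, *Pcna* and *Uhrf1*. Of all 14341 genes tested without these cells, 3016 were higher. *Top2a* then had a log2 fold change of 2.81, *Nusap1* one of −0.21 and *Pcna* one of 1.49 (edgeR). Without *mKate2* AAV replicate 1, 20 of 27 members tested were higher, beside 2903 of 14526 genes, and without *mKate2* AAV replicate 2, 12 of 21, beside 2730 of 13663. Without *Yap5SA* AAV replicate 1 it was 15 of 27, beside 2444 of 14432 genes. Without *Yap5SA* AAV replicate 3 it was 26 of 35, beside 2725 of 14905 genes. DESeq2 called 20 members, the same genes, beside 3095 of 14375 higher.

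Of other cell cycle genes, 15 of 26 tested genes of the G2 and M phases were higher and 3 lower in microglia-like cells, 6 of 26 S phase genes were higher and 1 lower, and 7 of 20 regulators were higher and 5 lower, beside 21.3% higher and 27.8% lower of all genes tested. The share of S phase genes called higher was near that background. *Ckap2l*, a spindle pole protein, had 36.1, 16.4, 46.0 and 24.2 CPM against 0.789, 1.03, 2.26 and 0.979 CPM (log2 fold change 4.99, adjusted p = 1.25e-05, edgeR). *Cdca8*, borealin of the chromosomal passenger complex, and *E2f8*, a repressing E2F factor, were higher by log2 fold changes of 4.12 and 6.03, the latter over 0, 4, 1 and 1 UMIs in MG-like cells. Other genes were lower in microglia-like cells. *Spc25*, a kinetochore subunit, had 1146, 418, 673 and 1043 CPM in MG-like cells and 17.1, 23.9, 23.4 and 24.2 CPM in microglia-like cells (log2 fold change −4.59, adjusted p = 2.63e-05, edgeR). *Cdkn1b*, the cyclin-dependent kinase inhibitor p27, had 377, 353, 420 and 378 CPM against 70.4, 31.1, 66.7 and 26.1 CPM (−2.63, adjusted p = 0.000139, edgeR), and *Cit*, citron kinase of cytokinesis, had a log2 fold change of −3.01. These MG-like levels were even over libraries for *Cdkn1b* and varied between 418 and 1146 CPM for *Spc25*. *Spc25* overlaps *Nostrin* on the opposite strand.

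Cells with at least 3 G2/M UMIs were then compared with the other cells of their type within each library. In microglia-like cells the S members were at 956 against 200 CPM in *mKate2* AAV replicate 2 and at 439 against 226 CPM in *Yap5SA* AAV replicate 1, the libraries with at least 10 such cells. This is a mean log2 ratio of 1.61 ± 0.92 (SD, n = 2). Genes of G2 and M phase outside the members, which the threshold did not use, had a mean log2 ratio of 2.16 ± 1.05 and other S phase genes one of 1.37 ± 0.87 (SD, n = 2 each). In MG-like cells the ratio was 0.23 ± 0.12 (SD, n = 4) for S members and −0.14 ± 0.30 (SD, n = 4) for the other G2/M genes, and rod-like cells had 0.25 ± 0.06 and 0.11 ± 0.02 (SD, n = 2). The sum of the other G2/M genes in MG-like cells was mostly *Spc25*, at 759 CPM pooled beside a list mean of 1147 CPM. Pooled over libraries, *Spc25* was at 381 CPM past the threshold against 801 CPM in the others, while *Hmgb2* was at 224 against 101 CPM. The negative ratio therefore does not describe every gene of the list. Cells past the threshold were deeper than the others in each type, at 17341 to 30675 against 3219 to 11572.5 median UMIs in MG-like cells.

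The other listed genes with most UMIs in all 496 cells were *Hmgb2*, *Rb1*, *Ccnd1*, *Spc25*, *Cdkn1b* and *Cdkn1a*. *Hmgb2*, a chromatin protein, was at 312 CPM in these cells and 139.9 CPM in the others, and *Cdkn1a*, the inhibitor p21, at 146 and 52.0 CPM. *Rb1*, the retinoblastoma protein that holds E2F factors, was at 194 against 270 CPM, and *Cdkn1b* at 171 against 251 CPM. These values pool cell types in different mixtures. In MG-like cells *Rb1* was likewise lower past the threshold, at 273.5 against 399.5 CPM, and *Cdkn1b* at 292 against 387 CPM. In rod-like cells *Rb1* was at 167 against 146 CPM and *Cdkn1b* at 85.9 against 86.7 CPM. *Hmgb2* was at 224 against 101 CPM in MG-like cells and *Cdkn1a* at 174 against 51.4 CPM. Within microglia-like cells past the threshold *Hmgb2* was at 680 against 246 CPM and *Cdkn1a* at 326 against 164 CPM.

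Broad microglia-like cells were set against the other microglia-like cells of their library. The S members were at 1274, 1667, 751 and 95.7 CPM in 1, 36, 15 and 1 broad cells and at 208, 216, 250 and 222 CPM in the others. In the libraries with 36 and 15 such cells, 14 of 15 S members were higher in broad cells in each, and 37 of 37 other G2/M genes in each. Of all genes with a UMI in these cells 27.6% and 42.9% were higher in the broad cells there. The single cell of *Yap5SA* AAV replicate 3 went the other way for S members. Summed over the 53 cells, *Tk1*, thymidine kinase, was at 209 against 3.45 CPM and *Rrm2*, the small subunit of ribonucleotide reductase, at 84.4 against 1.19 CPM, whereas *Cdt1* was at 17.3 against 12.6 CPM. The Cdt1 protein is known to be degraded in S phase and blocked in G2, and no cause of these RNA levels was tested.

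The unnamed *Igfbp2* cluster held the highest level of most members when libraries were pooled. Of the 20 G2/M members, 18 had their highest pooled level there, and 8 of the 15 S members did, while the other 7 were highest in T or NK-like cells. The cluster was chosen for its cells with many G2/M members, so high G2/M levels follow from that choice and are only a description. Other unnamed clusters were left out of this ranking, and the share of all genes highest in the cluster was not counted. The cluster came almost wholly from *mKate2* AAV replicate 2, with 285 of its 322 cells against 2, 27 and 8 in the other libraries, and its values therefore describe that library. At least 3 G2/M UMIs were held by 28 of 285 cells (9.82%, 6.63 to 13.9) and 3 of 27 cells (11.1%, 2.35 to 29.2) of *mKate2* AAV replicate 2 and *Yap5SA* AAV replicate 1, and 21 and 2 cells were broad. Thinned to 2000 UMIs the shares were 9.44% and 7.69%.

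In these libraries *Cenpf* was at 135 and 23.4 CPM in the cluster, *Ube2c* at 104 and 13.4 CPM, *Top2a* at 108 and 6.68 CPM and *Nusap1* at 79.9 and 0 CPM. The value of *mKate2* AAV replicate 2 was higher for each. In *Yap5SA* AAV replicate 1 the microglia-like level was above that of the cluster for all 4 genes, at 36.3, 20.7, 88.3 and 31.3 CPM, so the order of the pooled levels did not hold there. In its 21 broad cells S members were at 1439 CPM, against 217 CPM in the 264 other cells, and all 15 were higher, as were 50.1% of all genes with a UMI. *Ccnd1*, cyclin D1 of the entry into the cycle and a leading gene of the cluster, was at 2433 CPM in cells past the threshold and 3020 CPM in the others. MG markers made up 0.254% of the UMIs of broad cells in *mKate2* AAV replicate 2, microglia markers 0.0114%, fibroblast markers 0.0533% and pericyte markers 0.00158%. In the 264 other cells of the cluster these shares were 0.548%, 0.0538%, 0.0237% and 0.157%, so pericyte markers were higher there than in broad cells. In the MG-like cells of that library MG markers made up 2.23%, and what cells form the cluster was not settled. In *Yap5SA* AAV replicate 1, 13 of 27 cells (48.1%) held a tdTomato UMI, a share below that of MG-like cells (67.0%) and above that of microglia-like cells (4.40%).

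**Figure D4:**
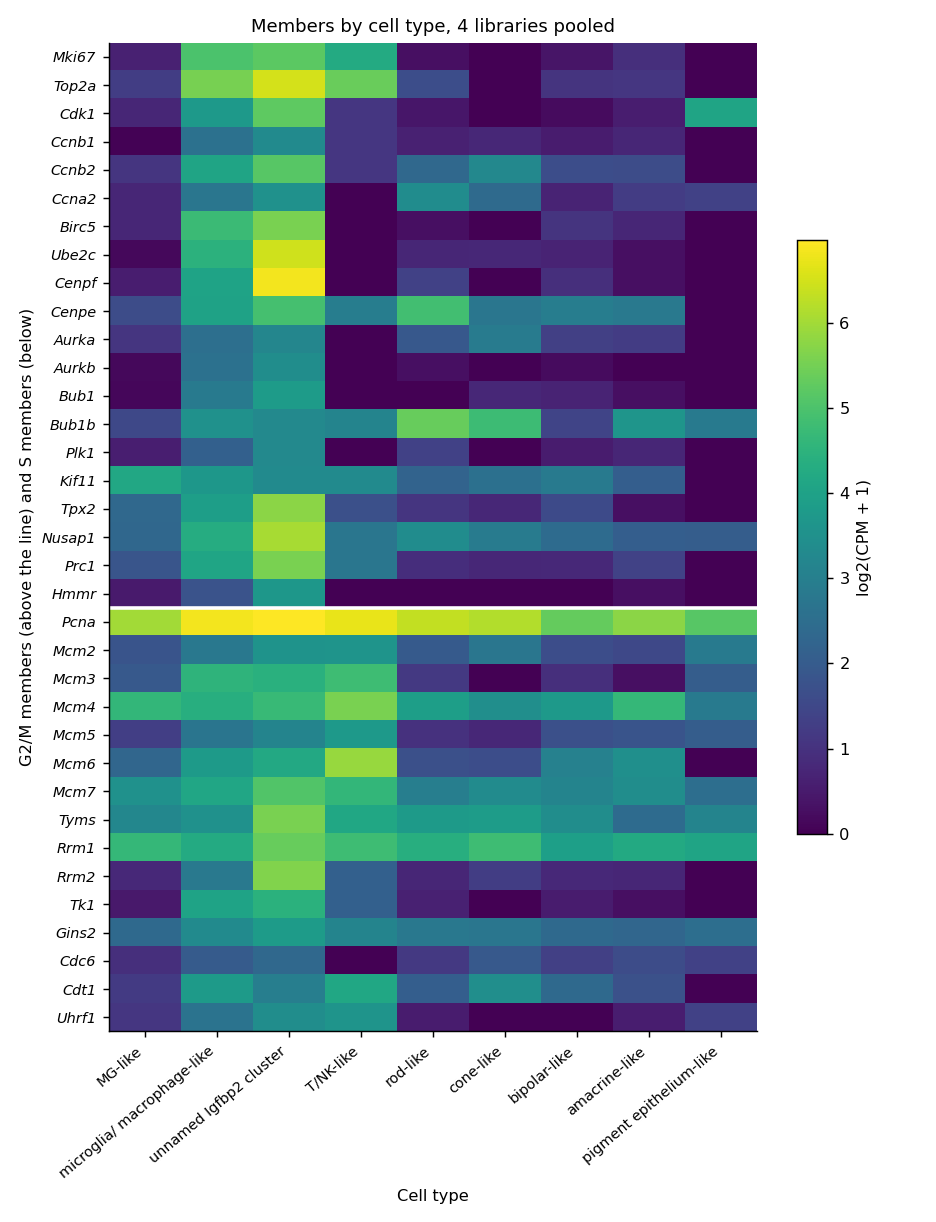
Level of each member (rows, G2/M above and S below the white line) in each cell type (columns), as log2(CPM + 1) of UMIs summed over the 4 libraries. The *Igfbp2* cluster and microglia-like columns are brightest for most G2/M members, *Kif11* is brightest in MG-like cells and *Bub1b* in rod-like cells.

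*Kif11* was the exception among MG-like cells. It encodes the plus-end motor that pushes spindle poles apart, and lies at chr19:37364799-37410307 of GRCm39 on the plus strand, where it overlaps the processed pseudogene *Gm8663* on the same strand. It had 2.10, 39.4, 2.87 and 10.2 CPM in MG-like cells and 13.3, 9.50, 20.7 and 1.86 CPM in microglia-like cells. The MG-like value of *mKate2* AAV replicate 2 lay above every microglia-like value, the others within their range, and the log2 fold change of 0.89 ± 0.96 (SE) was not called (adjusted p = 0.475, edgeR).

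Few cells held these UMIs. In *mKate2* AAV replicate 2, 35 of 2137 MG-like cells had at least 3 *Kif11* UMIs and together 589 of 647 *Kif11* UMIs (91.0%), with up to 82 in a cell. In *Yap5SA* AAV replicate 3, 7 of 1075 cells held 49 of 73 UMIs (67.1%), while 0 and 1 cells reached 3 *Kif11* UMIs in the other libraries. Of the 954 G2/M UMIs of the 121 MG-like cells past the threshold but not broad, 626 (65.6%) were *Kif11*, 60 *Nusap1*, 49 *Tpx2* and 47 *Cenpe*. Most of these came from a single library, and all MG-like cells of replicate 1 of *mKate2* AAV and of *Yap5SA* AAV held 24 and 28 *Kif11* UMIs.

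Most *Kif11* UMIs of MG-like cells were found in 1 cluster, led by the immediate-early and stress genes *Maff*, *Ccn1*, *Vcl*, *Fosl1*, *Egr3* and *Dnajb1*. Within it *Kif11* was at 79.3 CPM in *mKate2* AAV replicate 2 (250 cells, median 23367.5 UMIs, 631 of the library's 647 *Kif11* UMIs), 6.36 CPM in *Yap5SA* AAV replicate 1 (61 cells) and 25.9 CPM in *Yap5SA* AAV replicate 3 (75 cells). In the other MG-like clusters of these libraries it was at 1.89, 2.43 and 3.05 CPM. In *mKate2* AAV replicate 1 the cluster held 6 cells with 0 *Kif11* UMIs, and the other clusters were at 2.12 CPM. *Pcna* was also higher in this cluster, at 132, 102, 124 and 97.0 CPM in the 4 libraries against 46.1, 56.9, 46.1 and 46.2 CPM in the other MG-like clusters. *Mcm4* was at 41.1 against 18.05 CPM in *mKate2* AAV replicate 2 and at 54.98 against 17.7 CPM in *Yap5SA* AAV replicate 3. It was at 21.8 against 14.3 CPM in *Yap5SA* AAV replicate 1. In *mKate2* AAV replicate 1 it went the other way, at 14.7 CPM (1 UMI) against 19.0 CPM. This cluster was singled out after the values were seen, and no test was applied.

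Rod-like cells held UMIs of few members. Of the 111 rod-like cells past the threshold that were not broad, 95 had 1 or 2 different members, and of their 469 G2/M UMIs 188 were *Cenpe*, 141 *Bub1b*, 44 *Nusap1* and 29 *Ccna2*. *Bub1b* (chr2:118428684-118472076 of GRCm39, plus strand), a kinase-like protein of the spindle checkpoint, was found in 25.8% and 10.9% of rod-like cells of *mKate2* AAV replicate 2 and *Yap5SA* AAV replicate 3. *Cenpe* (chr3:134918298-134979372, plus strand), a kinetochore motor, was found in 10.6% and 5.55%. In MG-like cells of these libraries the shares were 1.45% and 0.930% for *Bub1b* and 0.842% and 0.744% for *Cenpe*, at medians of 3508 and 3257 UMIs against 7807 and 3712 in rod-like cells. *Bub1b* was held by 175 and 63 rod-like cells, *Cenpe* by 72 and 32, and both genes by 28 and 6.

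The comparison of rod-like with MG-like cells was added after these levels were seen and rests on 2 libraries with 1 residual degree of freedom, so for the members it is a description and no p is given. Of 14598 genes edgeR called 8464 (58%), 3550 higher (24.3%) and 4914 lower (33.7%) in rod-like cells. Of 21 members tested, 5 were higher and 4 lower, and the other 14 did not pass the filter. The share of members called higher was near that of all genes, and the share called lower was below it. *Bub1b* was at 43.2 and 31.5 CPM in rod-like and 2.56 and 1.96 CPM in MG-like cells, a log2 fold change of 3.88. *Cenpe* was at 29.2 and 26.3 against 2.31 and 1.82 CPM (3.57), and *Ccna2*, the cyclin of S phase and G2, at 8.83 and 11.3 against 0.548 and 1.40 CPM (3.36). The libraries were close to each other for all 3 genes in rod-like cells.

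*Ccnb2* and *Nusap1* were also called higher, with log2 fold changes of 2.76 and 1.43, and *Kif11*, *Prc1*, *Tpx2* and *Mcm4* lower, with −2.97, −2.0, −1.84 and −1.33. DESeq2 called only *Bub1b*, *Ccna2*, *Cenpe*, *Kif11* and *Mcm4*, and the *Kif11* call rests on the few MG-like cells described above. *Mki67*, *Cdk1*, *Birc5* and *Ube2c* did not pass the filter and had 2, 3, 1 and 5 UMIs in rod-like cells of *mKate2* AAV replicate 2. Of other listed genes, edgeR called 6 of 20 G2/M genes higher and 6 lower, and 7 of 24 S phase genes higher and 3 lower. Of 21 regulators 3 were higher and 12 lower, beside 24.3% higher and 33.7% lower of all genes. The 6 other listed genes with the lowest p were all lower in rod-like cells. Their log2 fold changes were −5.52 for *Spc25*, −5.66 for *Wee1* (the kinase that holds back *Cdk1*), −4.35 for *Ccnd3*, −3.80 for *Ccnd1*, −3.45 for *Cit* and −2.83 for *Cdk6*.

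T or NK-like cells showed S members without broad G2/M expression. In *mKate2* AAV replicate 2, which held 54 of the 66, 14 cells (25.9%, 14.96 to 39.7) passed 3 G2/M UMIs at a median depth of 12070 UMIs, and 0 did after thinning. *Mcm6* was at 59.3 CPM, *Mcm4* at 47.9 CPM and *Top2a* at 42.9 CPM there. At least 5 different S members were held by 11 of 66 T or NK-like, 50 of 1208 microglia-like, 19 of 322 *Igfbp2*-cluster and 47 of 5208 MG-like cells. Of these, 0, 22, 9 and 1 were also broad for G2/M members, and the 47 MG-like cells had a median of 33948 UMIs.

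**Figure D5:**
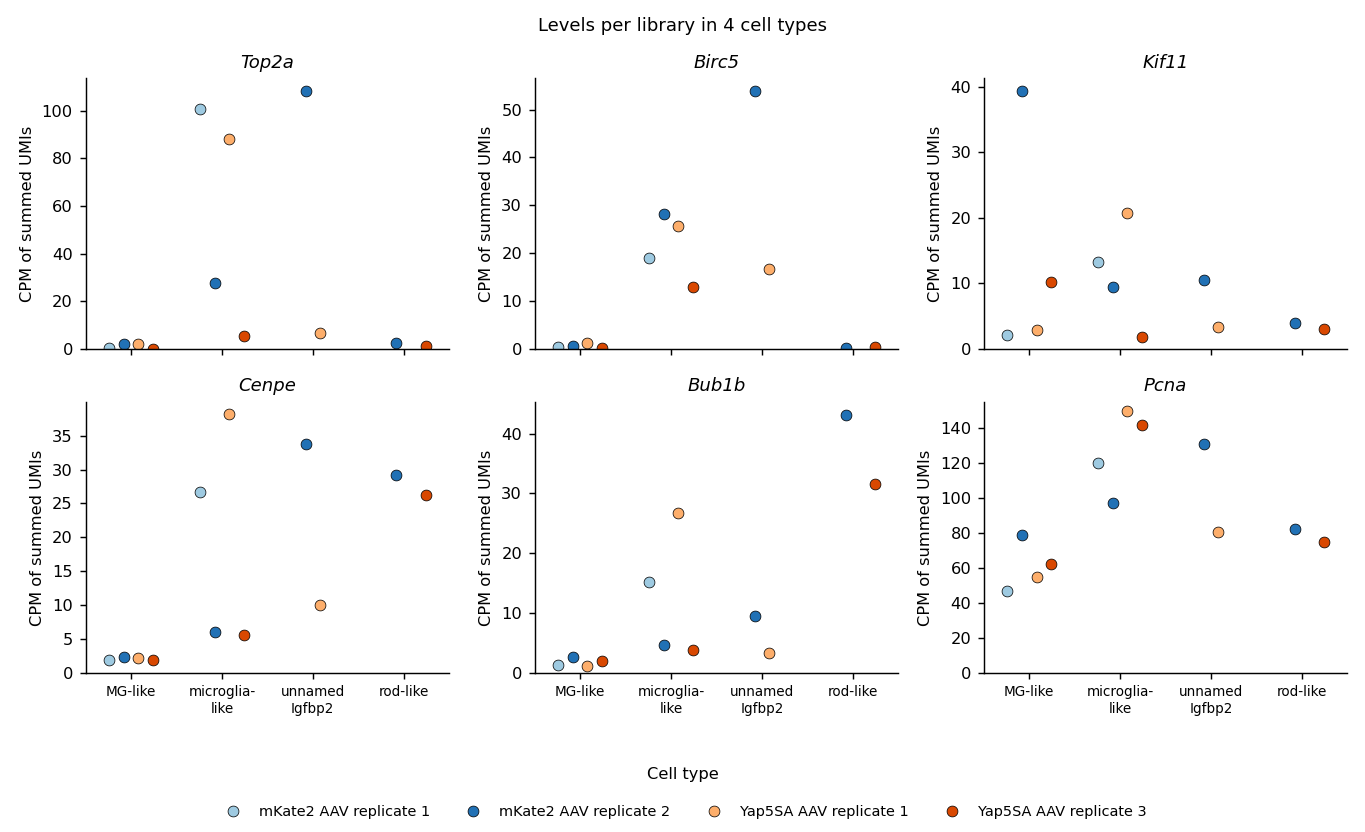
Level of 6 members (CPM of summed UMIs, y axes from 0) in 4 cell types, 1 point per library with at least 20 cells of the type. *Top2a* and *Birc5* are near 0 in MG-like and rod-like cells, *Kif11* reaches 39.4 CPM in the MG-like cells of *mKate2* AAV replicate 2, and *Bub1b* and *Cenpe* are high in rod-like cells of both libraries.

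Whether *Yap5SA* AAV left a difference in these genes at 56 days was tested in MG-like cells with counts summed per library. Of 15186 genes 0 (0%) were called by edgeR's quasi-likelihood test and 0 by DESeq2, while 41 had an unadjusted edgeR p under 0.05. Of the 22 members tested 0 were called and 0 had an unadjusted p under 0.05. The log2 fold changes of *Yap5SA* AAV against the control lay between −1.84 for *Kif11* and 0.99 for *Uhrf1*, with medians of −0.12 for 9 G2/M members, −0.09 for 13 S members and −0.01 for all genes tested. *Uhrf1*, which keeps DNA methylation through replication, was the only member whose libraries did not overlap in the fit's scaled CPM, higher with *Yap5SA* AAV, beside 8.27% of all genes in that direction. When counts were simulated with the spread of this comparison, 2-fold changes were called in 0% of genes and 8-fold changes in 63%, so a 2-fold difference was not detectable here.

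The summed levels in MG-like cells differed between AAVs by less than the wider spread between libraries. *Pcna* was at 46.6 and 78.9 CPM with *mKate2* AAV and 55.0 and 62.1 CPM with *Yap5SA* AAV (log2 fold change −0.21 ± 0.38, SE, adjusted p = 1.00, edgeR). The S members together were at 149 ± 24.5 CPM (SD, n = 2) and 144 ± 10.7 CPM (SD, n = 2), and the G2/M members at 40.8 ± 29.5 CPM and 31.6 ± 5.25 CPM (SD, n = 2 each). Of the control libraries' G2/M levels of 19.9 and 61.6 CPM, *Kif11* made up 2.10 and 39.4 CPM.

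In microglia-like cells 0 of 9488 genes (0%) were called between AAVs, against 6 by DESeq2, and 176 had an unadjusted edgeR p under 0.05. Each AAV had 1 library from Cell Ranger 8.0.0 and 1 from 9.0.1, and with this version as a term 35 genes were called, all lower and none a member. None of the 24 members tested was called by either tool, and only *Ccnb2* had an unadjusted p under 0.05, at 5.71 and 11.1 CPM with *mKate2* AAV and 27.1 and 31.7 CPM with *Yap5SA* AAV (log2 fold change 1.57 ± 0.59, SE, adjusted p = 1.00, edgeR). On the CPM scaled for the fit, *Ccnb2*, *Nusap1*, *Pcna* and *Cdt1* were higher in both *Yap5SA* AAV libraries than in both *mKate2* AAV libraries, beside 12.2% of all genes, and *Cdk1* and *Mcm4* lower, beside 11.8%. Some of these values rest on few cells. In *Yap5SA* AAV replicate 3 *Ccnb2* had 17 UMIs in 4.55% of 66 cells, *Nusap1* 13 UMIs in 1.52% and *Cdk1* 1 UMI. In *mKate2* AAV replicate 1 *Ccnb2* had 3 UMIs in 5.88% of 34 cells and *Nusap1* 6 UMIs in 2.94%. Different clusters held the microglia-like cells, since 113 of the 159 of *Yap5SA* AAV replicate 1 were in a cluster led by *Cxcl2*, *Ccl4* and *Rgs1*. Of the 949 cells of *mKate2* AAV replicate 2, 445 were in one led by *Ccl8*, *Lyz2* and *Ms4a7* and 432 in one led by immunoglobulin genes, with *Trem2* also among its top genes. The AAV difference was not shown to differ between microglia-like and MG-like cells for any of 14375 genes by edgeR (0%, 291 at an unadjusted p under 0.05, 2 by DESeq2), with 0 of 27 members called.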

How the data were processed

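Per the labels and file headers, the authors made counts of UMIs per gene and cell with Cell Ranger (8.0.0, or 9.0.1 for *mKate2* AAV replicate 2 and *Yap5SA* AAV replicate 3) on GRCm39. The deposited counts are not normalized and list barcodes called as cells, with 12317170 to 50938304 UMIs per library. Members and gene lists were chosen with earlier results of these data known. Cells with at least 1000 UMIs and at most 15% mitochondrial UMIs were integrated by reciprocal PCA (Seurat 5.3.0, 30 dimensions, 2961 variable genes, none of the cell cycle) and clustered (Leiden, k = 15, resolution 1). Of 31 clusters 23 were named by markers, by a rule changed after a first version, so a cell type can differ from the study's. *Yap5SA* AAV replicate 2, the same cells as replicate 1, enters only alternatives. No doublet caller was applied. Sums per library and type were tested with edgeR 4.0.16 (filterByExpr, TMM, quasi-likelihood, adjusted p under 0.05), with DESeq2 1.42.0 beside it. Only the edgeR test was tried on simulated counts. CPM printed per library are unscaled. Named genes were the 5 G2/M and 5 S members with most UMIs, the called members with the lowest p (up to 10 per comparison) and up to 6 other called listed genes. Motifs were searched in RefSeq promoters, and gene coordinates are from GENCODE on GRCm39.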

Additional observations from a re-analysis of the deposited data

Results flagged for a closer look

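Cells left out by the limits on UMIs and mitochondrial share are outside all comparisons above, and in 1 library they held G2/M UMIs above the level of the control libraries. Of the 281 cells left out of *Yap5SA* AAV replicate 1, 5 (1.78%) had at least 3 G2/M member UMIs, against 0 of 1072 and 15 of 2092 (0.717%) in *mKate2* AAV replicates 1 and 2. In *Yap5SA* AAV replicate 3 it was 1 of 1099 (0.0910%), so the libraries of *Yap5SA* AAV lay on both sides of the controls.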

How the results depend on the processing

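Of 145 settings tried over the results, 121 left a result on the same side, 15 raised a count from 0 and 9 moved a share. The mean share of MG-like cells with at least 3 G2/M UMIs, 2.14%, was 0.217% after thinning, 4.96% with at least 2 UMIs, 0.746% with at least 5 UMIs, 0.484% with at least 3 different members and 0.0451% with at least 5. For rod-like cells, 8.65%, it was 0.730% after thinning, 16.1% with at least 2 UMIs, 1.34% with at least 3 different members and 0.148% with at least 5. Between AAVs in microglia-like cells, where 0 genes were called, DESeq2 called 6, no filter on low counts gave 67, the processing batch (the Cell Ranger version in the file headers) as a term 35, all lower, and leaving out each library 1 to 61, none of them a member. With a replicate block on 5 libraries, duplicates included, 485 genes were called, *Cenpe* and *Cenpf* (higher) among them, and in MG-like cells 0; the same 5 libraries without the block gave 0 in both. Labels tie nothing to a replicate number and only numbers 1 and 2 are shared, so the numbers were not taken as pairs. For the difference between cell types in the AAV effect DESeq2 called 2 genes, no filter 13, cells assigned by their marker UMIs 9, and leaving out each library 4 to 102. The cause of these changes was not tested. Depth limits what can be said of MG-like cells: a cell with few UMIs can lack members it expresses. With 2 libraries per AAV, simulated 2-fold changes were not called between AAVs, between microglia-like and MG-like cells or in their interaction, and rod-like cells were not simulated.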
